A study of Mus musculus with 2 samples.

Results

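Mir21a is the mouse gene of the microRNA (miRNA) miR-21a, and its reads were examined in the thymus of newborn mice, the organ in which T cells are made. It was taken by its identifier, ENSMUSG00000065455.1, and is 1 of 1973 miRNA genes in the count tables. Both libraries are of 1 group: both thymus lobes of 1 pup each, taken on postnatal day 0 from a B6NCrl litter, with small RNA under 30 nucleotides sequenced. Replicate 1 came from pup 2 and replicate 2 from pup 3. Neither pup carried a named allele or treatment, and the labels record no sex. Mir21a was selected on measured values of these libraries, namely its level, its rank and share, and its difference between them, so those values are a description and carry no test.

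A miRNA is cut from a hairpin in a longer transcript, and one of its arms guides Argonaute proteins to messages that pair with its seed, bases 2 to 8. MiR-21 is among the most studied miRNAs of mammals. It represses regulators such as Pdcd4, a tumour suppressor that restrains translation. In T cells it is induced on activation, and the transcription factors AP-1 and STAT3 are known to drive it in human cells.

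The mature sequences show what sets miR-21a apart from the other miRNAs that carry its number. They are given 5′ to 3′ as listed by RefSeq for GRCm38.p6, with the seed in capitals. The 5p arm is the one known as the guide strand.
miR-21a-5p: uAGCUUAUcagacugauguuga
miR-21a-3p: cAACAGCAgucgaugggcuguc
miR-21b: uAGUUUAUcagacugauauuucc
miR-21c: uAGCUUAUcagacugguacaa
MiR-21c has the seed of miR-21a-5p, whereas miR-21b does not. Counted from 1 at the 5′ end of miR-21a-5p, miR-21b differs by C4U, which lies in the seed, and by G18A, G21U and A22C. MiR-21c differs by A16G, G18A, U19C, U20A and G21A, all past the seed. These are substitutions at positions that both sequences have, and the lengths differ too, with 23 bases in miR-21b and 21 in miR-21c. The longest stretch of bases shared with miR-21a-5p is 15 for miR-21c and 13 for miR-21b. MiR-21a-5p has 22 bases, of which 36.4% are G or C, and begins with U. Among 468 mature arms of detected genes (those with at least 10 counts in both libraries), the median length was 22, the median G and C content was 47.8%, and 37.8% began with U.

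The Mir21a hairpin lies on chromosome 11, from 86584067 to 86584158 on the minus strand of GRCm38 (mm10), inside the last exon of Vmp1, a gene that acts in autophagy. In transcript Vmp1-201 this is exon 12 of 12, from 86583865 to 86585451, and the hairpin of 92 nucleotides starts 1152 nucleotides into its annotated 3′ untranslated region (UTR), on the same strand. Mature 5p spans 86584120 to 86584141 and mature 3p spans 86584082 to 86584103, with 16 nucleotides between the arms. The hairpin folded with a predicted free energy of -46.2 kcal/mol in RNAfold, and 19 of the 22 bases of the 5p arm paired with the 3p arm. Per nucleotide this was -0.50 kcal/mol, against a median of -0.44 over 257 detected genes with a RefSeq hairpin, of which 207 were less stable and 49 more stable.

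**Figure D1:**
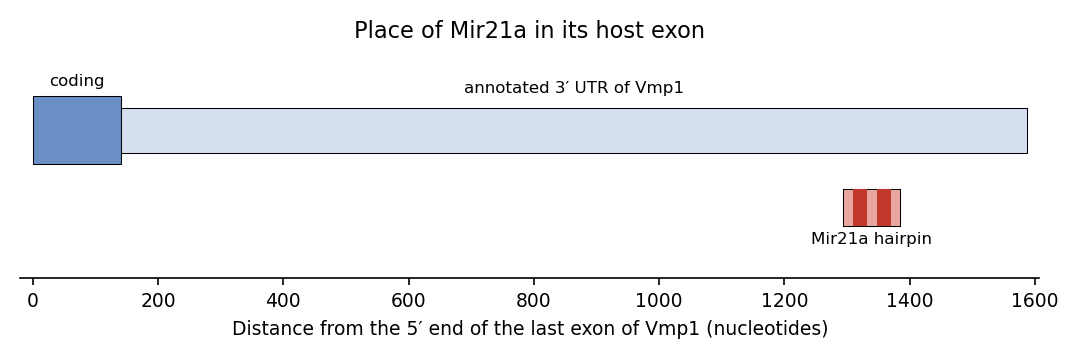
Map, to scale, of the last exon of Vmp1 in nucleotides from its 5′ end, with the coding part in dark blue, the annotated 3′ UTR in light blue, the Mir21a hairpin in pink and its 5p (left) and 3p (right) arms in red. The hairpin starts 1293 nucleotides from the exon's 5′ end and ends 202 nucleotides before its 3′ end.

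Mir21a had 112858 counts in replicate 1 and 50683 in replicate 2. These are raw counts of reads in the sense of the gene, and CPM is the count per 1000000 such reads over all miRNA genes of the library. That total was 2734133 in replicate 1 and 1289151 in replicate 2. The level was 41277 CPM in replicate 1 (95% Wilson interval 41042 to 41514) and 39315 CPM in replicate 2 (38981 to 39652), a mean of 40296 CPM ± 1388 (SD, n = 2). In both libraries Mir21a stood at rank 6 by level, as did its mean. It took 4.03% ± 0.139 of the counted reads, which is 1 read in 24.2 in replicate 1 and 1 in 25.4 in replicate 2. Of all reads in the tables, which include unmapped and multimapping ones, it took 1.06% in replicate 1 and 1.04% in replicate 2. Reads that map to several loci, 56.3% of all reads in replicate 1 and 57.5% in replicate 2, were left out of the gene counts. Genes whose sequence lies at several loci can thus be too low, and the rank and share of Mir21a hold among the counted reads. The reads carry no described molecular identifiers, so these intervals and the limits set by a count of 0 cover counting error only. The sample descriptions name separate pups of 1 litter, but both libraries carry the same donor identifier. The SD may therefore be of pups and library making together, or partly technical.

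The concentration of reads in this gene can be seen from the rest of the table. The median of the 294 detected genes was 239 CPM, so that the mean level of Mir21a was 168 times that median. Genes that lose reads to several loci are among the 294, so the median can be too low. The 200 least abundant detected genes, up to Mir200a at 1056 CPM, had 39569 CPM in sum, less than Mir21a by itself. A read of small RNA spans about the whole mature RNA (21 to 23 bases over the arms listed for the 20 most abundant genes), so levels were compared between genes without division by length. How efficiently each sequence entered the libraries was not tested.

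**Figure D2:**
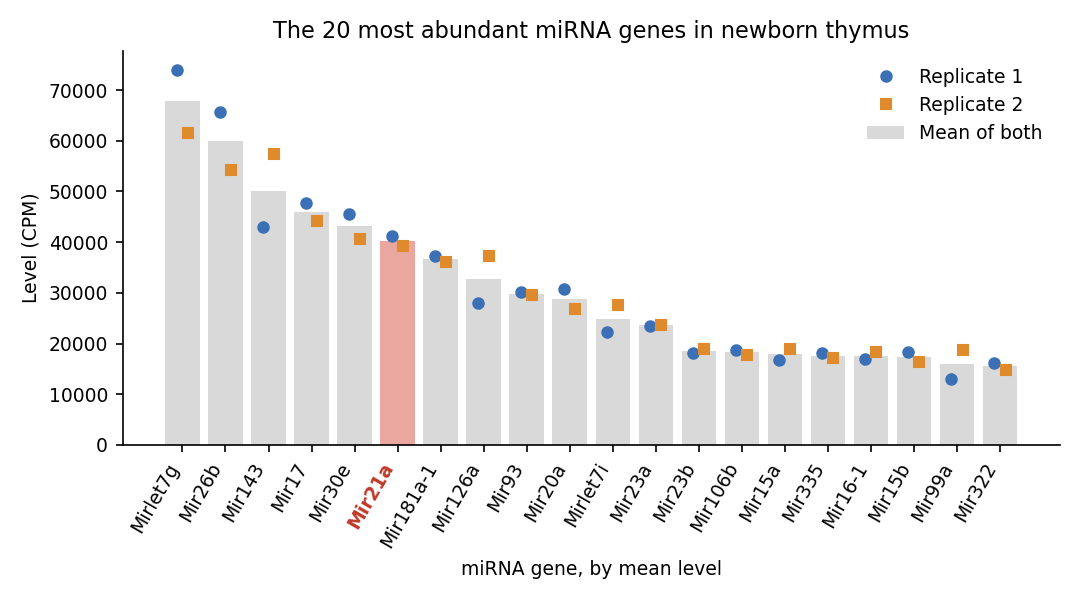
Levels in CPM of the 20 miRNA genes with the highest mean, with the bar for the mean of both libraries, circles for replicate 1 and squares for replicate 2. Mir21a, in pink, sits at rank 6, with 41277 CPM in replicate 1 and 39315 CPM in replicate 2.

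Mir30e, of the miR-30 family, stood directly above Mir21a with 45600 CPM in replicate 1 and 40696 in replicate 2. Its range over the libraries overlapped that of Mir21a, although within each library Mir21a was the lower, at 0.905 times Mir30e in replicate 1 and 0.966 times in replicate 2. The ranges of the other neighbours did not overlap that of Mir21a, but 2 libraries give this little weight. Mir21a was at 0.877 ± 0.0173 times the level of Mir17 (47713 and 44198 CPM), a gene of the miR-17-92 cluster, which supports lymphocyte growth. It was at 0.823 ± 0.194 times the level of Mir143 (42989 and 57301 CPM), a miRNA of smooth muscle and other mesenchyme. It was at 0.676 ± 0.0676 times Mir26b and at 0.598 ± 0.0572 times Mirlet7g, the highest of the genes counted on their own strand. Reads of Mir142, which lie opposite to the annotated gene Mir142b, are not in this order and were more numerous than those of Mirlet7g.

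Below it came Mir181a-1, which tunes how strongly developing T cells respond to antigen, with 37220 CPM in replicate 1 and 36043 in replicate 2. Mir21a exceeded it 1.10 ± 0.0129 times, higher in both libraries. Mir181a-1 shares 20 bases with Mir181a-2, and reads that map to several loci were left out of the gene counts, so its count can be too low. Mir21a exceeded Mir126a, a miRNA of endothelial cells, 1.26 ± 0.295 times, and Mir93 1.35 ± 0.0254 times. It exceeded Mir20a 1.40 ± 0.0907 times and Mirlet7i 1.64 ± 0.304 times. Mir21a itself shared no stretch of 20 bases with any of 141767 annotated transcripts other than its own and that of Vmp1, in which it lies. Shorter matches, matches with mismatches and loci outside annotated transcripts were not searched.

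Between the libraries Mir21a differed little. Its log2 ratio of replicate 2 over replicate 1 was -0.07, with an exact 95% interval for counting error of -0.085 to -0.055, which is a level 1.05 times higher in replicate 1. Of the 294 detected genes, 39 (13.3%) lay more than 1.5-fold apart between the libraries, Mir21a not among them, and 233 (79.3%) lay farther apart than Mir21a. The median absolute log2 ratio of the detected genes was 0.20. With the trimmed mean of M-values (TMM) scaling of edgeR in place of total counts, the log2 ratio of Mir21a was -0.14, farther from 0. The TMM factors were 0.977 for replicate 1 and 1.023 for replicate 2. They shift the log2 ratio of every gene by the same amount. The choice of Mir21a used this ratio, so its place among the genes supports nothing.

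Genes of similar level, 11 with a mean from 20148 to 80592 CPM (within 2-fold of Mir21a), had absolute log2 ratios from 0.018 to 0.41, with a median of 0.20. Of these, 3 lay closer together than Mir21a and 8 farther apart. The coefficient of variation of Mir21a, its SD over its mean, was 3.44%, against a median of 9.90% over the 11 genes. The log2 ratios nearest to that of Mir21a were those of Mir181a-1 (-0.05), Mir93 (-0.03) and Mir17 (-0.11), by the difference in log2 ratio over the 2 libraries. The highest were those of Mir143 and Mir126a (both 0.41), and the lowest those of Mir26b and Mirlet7g (both -0.27). Mir143, with its ratio of the opposite sign, therefore lay much closer to Mir21a in level in replicate 1 than in replicate 2.

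**Figure D3:**
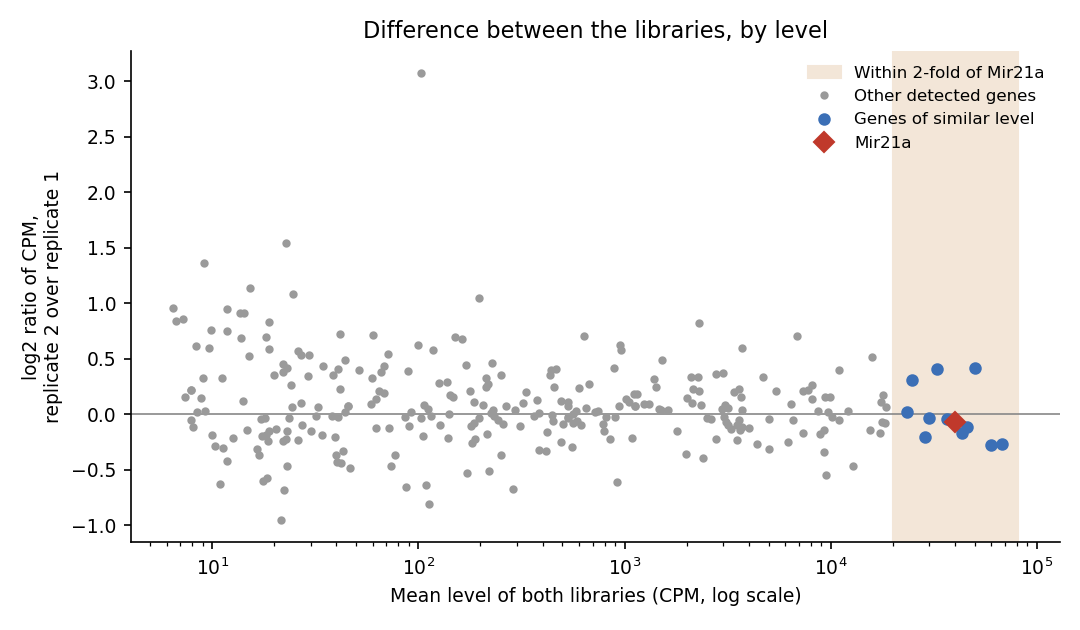
The log2 ratio of CPM of replicate 2 over replicate 1 (vertical) against the mean CPM of both libraries (horizontal, log scale) for the 294 detected genes, 1 point a gene, with the 11 genes within 2-fold of Mir21a in blue and Mir21a as a red diamond at -0.07. The band marks the 2-fold window, in which the ratios run from -0.27 to 0.41.

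No reads lay on the strand opposite to Mir21a. The count was 0 in both libraries, against 112858 and 50683 on its own strand, which allows a share of up to 0.00266% in replicate 1 and 0.00592% in replicate 2 (3 counts). This was common: 272 of the 294 detected genes (92.5%) and 17 of the 20 most abundant had 0 opposite reads in both libraries. The counts of Mir21a were therefore the same with and without strand.

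The relatives of miR-21a were all but absent from the counts. Mir21c, which has the same seed, had 0 counts in both libraries. With a limit of 3 counts per library, Mir21a was at least 37619-fold higher in replicate 1 and at least 16894-fold higher in replicate 2. Mir21b had 0 counts in replicate 1 and 1 in replicate 2. Neither shares 20 bases with another miRNA gene. Among the arms listed by RefSeq for the counted genes, the seed AGCUUAU was found in 2 genes, Mir21a and Mir21c, so that Mir21a supplied 100% of the counts under this seed, and the 3p seed AACAGCA was found in Mir21a by itself. The seed list is incomplete, and Mir590, a gene known for the same seed in human, was not analysed here. Of the genes above Mir21a in level, Mirlet7g had listed seeds that were shared with 8 other detected genes, those of Mir17 with 5, of Mir30e with 3 and of Mir26b with 2. These counts are lower limits, since arms missing from the list could not be matched, and Mir143 had no listed arm. No listed seed of Mir126a or Mir335 was shared with another detected gene, so the lack of a detected partner is not particular to Mir21a among the 20 most abundant genes. The tables give 1 count per gene, so the 5p and 3p arms could not be separated.

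The 5 bases CAGAC in miR-21a-5p are known in human vascular smooth muscle cells as a site bound by SMAD proteins, which speed the processing of the miR-21 hairpin on TGF-β or BMP signalling. The letters were searched on the RNA strand of each mature arm, and they directly follow the seed in miR-21a-5p without overlapping it. Of 858 counted genes with a mature sequence in RefSeq, 23 (2.68%) held them, and of 254 such detected genes 6 (2.36%) did. Genes and arms missing from the RefSeq list could not be searched, so these counts are lower limits. Detected genes that are not listed may hold the letters at a higher level than some of those shown. The 5 most abundant of the 6 are shown with CAGAC in capitals.
miR-21a-5p: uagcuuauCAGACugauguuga
miR-429-5p: gucuuacCAGACaugguuaga
miR-214-3p: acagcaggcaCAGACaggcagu
miR-215-5p: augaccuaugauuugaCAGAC
miR-199a-5p: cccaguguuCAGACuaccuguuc
The letters start at base 9 in miR-21a-5p and at bases 8, 11, 17 and 10 in the others in the order shown. Mir21a took 79.6% ± 2.13 of the counts of the 6 genes. Mir429, an epithelial member of the miR-200 family, followed with 8819 and 9851 CPM, and Mir214, a mesenchymal miRNA, with 771 and 1153 CPM. Mir215 had 28.2 and 26.4 CPM, and Mir199a-2, whose sequence is shared with another locus, had 9.88 and 12.4 CPM. These letters are a description of the sequences, and the counts do not show which arm was read.

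MiRNAs known to be induced with miR-21 in activated lymphocytes, or by NF-κB, AP-1 or STAT3, were much lower than Mir21a. All 7 genes of this list were counted and 6 were detected. Their summed level was 5808 CPM in replicate 1 and 4859 in replicate 2, so that Mir21a exceeded the sum 7.60 ± 0.696 times. Mir155, a miRNA of activated lymphocytes, had 3792 and 3235 CPM, and Mir21a exceeded it 11.5 ± 0.897 times. Mir146a, which damps NF-κB signalling, had 1114 and 731 CPM, and Mir21a exceeded it 45.4 ± 11.8 times. Mir146a and Mir146b each share 20 bases with 1 other locus, so their counts can be too low.

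The other members stood lower still. Mir221 had 382 and 386 CPM and Mir222, from the same cluster, 199 and 166 CPM. Mir132 had 291 and 299 CPM, and its cluster partner Mir212 had 29.3 and 39.6 CPM. Mir146b had 5 counts in each library. Of the 6 detected genes, 3 had a log2 ratio above 0 and 3 below it, with a median of -0.11 against 0.04 over all detected genes. Mir146a, at -0.61, was the member past 1.5-fold. The list was chosen with earlier results of these data known.

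Mir21a stood in the range of the miRNAs that mark the main cell types of the thymus, each as counted in whole tissue, where fewer cells of a type and less RNA per cell cannot be told apart. All 5 lymphocyte genes were detected, with a sum of 56000 CPM in replicate 1 and 50649 in replicate 2. Mir21a was at 0.757 ± 0.0277 times that sum. Mir181a-1, Mir181b-1 and Mir181b-2 of this list each share sequence with another locus, so the sum can be too low and the ratio too high. The sum also leaves out Mir142. Mir142, a miRNA of blood cells, was counted as 387318 and 178605 reads opposite to Mir142b, 3.48 ± 0.0651 times the counts of Mir21a. All 6 epithelial genes were detected, with a sum of 36005 and 37225 CPM, and Mir205, a miRNA of stratified epithelium, had the highest mean of them, with 9346 and 10405 CPM. Mir21a was at 1.10 ± 0.0639 times the epithelial sum. The endothelial Mir126a had 28049 and 37298 CPM. Of the 6 mesenchymal genes 5 were detected, with a sum over the list of 45733 and 60634 CPM, nearly all from Mir143. Mir21a was at 0.775 ± 0.180 times that sum. Mir199a-1, Mir199a-2 and Mir199b of this list share sequence with other loci, so this sum can be too low as well. Markers of lymphocytes and epithelium, the defining cells of the organ, were thus present in both libraries.

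**Figure D4:**
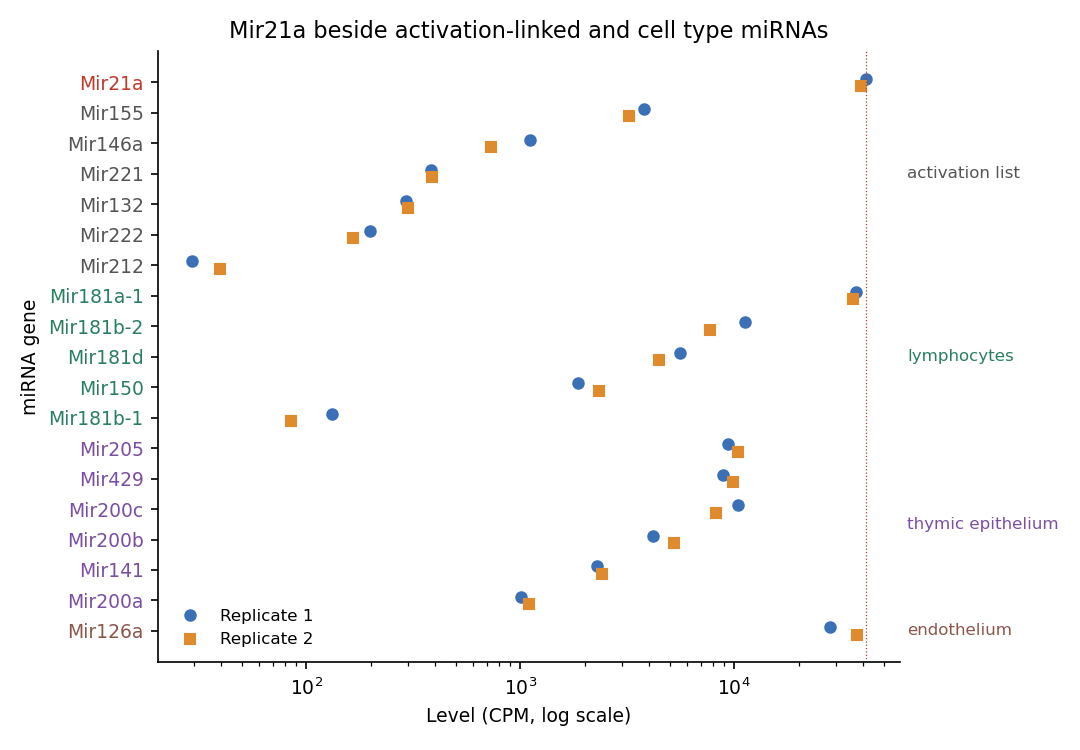
Levels in CPM (horizontal, log scale) of Mir21a, in the top row, and of the detected genes of the activation, lymphocyte, epithelial and endothelial lists, with circles for replicate 1 and squares for replicate 2, and a dotted line at the level of Mir21a in replicate 1. Mir21a lies to the right of each gene shown, nearest to Mir181a-1 and, in replicate 2, to Mir126a. Mir142 and the mesenchymal Mir143, both above Mir21a in both libraries, are not shown.

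Markers of the other cell types and tissues listed were far below Mir21a. Both myeloid genes were detected, with a sum of 940 and 801 CPM, nearly all from Mir223, a granulocyte miRNA. Of the 3 red blood cell genes 2 were detected, with a sum over the list of 233 and 175 CPM. Of the 8 heart and skeletal muscle genes 7 were counted, with a sum of 481 CPM in replicate 1 and 742 in replicate 2. Mir1a-1, Mir133a-1 and Mir133a-2 were at 0 but share 20 bases with other loci, and the heart miRNA Mir208b had 21.9 and 185 CPM. The liver miRNA Mir122 had 77.9 and 120 CPM. Mir206, a skeletal muscle miRNA, made up most of the muscle sum and was alike in the libraries, at 445 and 442 CPM, whereas Mir208a had 2.19 and 81.4 CPM and Mir499 11.7 and 34.1 CPM. In replicate 2 the muscle, mesenchymal, endothelial, epithelial and liver sums were higher, and the lymphocyte, myeloid and red blood cell sums lower. Mir150, of the lymphocyte list, went against its sum with 1853 CPM in replicate 1 and 2333 in replicate 2. So did Mir200c, of the epithelial list, with 10400 CPM in replicate 1 and 8208.5 in replicate 2. The epithelial sum itself differed little, at 36005 and 37225 CPM. The part of these markers in the ratio of Mir21a was not tested.

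A place in a 3′ UTR, as that of Mir21a, was uncommon among detected genes. By GENCODE M21, 7 of the 294 lay in a 3′ UTR of a protein-coding transcript on the same strand, 8 lay in a coding sequence and 3 in a 5′ UTR. Mir21a supplied 93.2% of the counts of the 7 genes in a 3′ UTR in replicate 1 and 93.0% in replicate 2, and it was the 1 of them among the 20 most abundant genes. The next was Mir324, in Dvl2, with 2669 and 2584 CPM, which Mir21a exceeded 15.5 times in replicate 1 and 15.2 times in replicate 2. The 6 others ran down to Mir7219 at 8.86 CPM, with a median of 64.5 CPM. The tables hold miRNA genes alone, so the level of the Vmp1 message was not analysed here.

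Mir21a also lay by itself on the chromosome. The nearest counted miRNA gene was Mir301, in Ska2, 529 kb away on the opposite strand (chromosome 11, 87113004 to 87113089). Mir301 had 2056 and 2205 CPM, and Mir21a exceeded it 20.1 times in replicate 1 and 17.8 times in replicate 2. Of the 294 detected genes, 150 (51.0%) had another detected miRNA gene within 10 kb, and so did 14 of the 20 most abundant, whereas Mir21a had none. Of the counts of the 117 miRNA genes of chromosome 11, 20 of them detected, Mir21a supplied 57.5% ± 2.86, and it exceeded the next, Mir22, 5.60 times in replicate 1 and 4.43 times in replicate 2. These are counts on the strand of each gene and leave out Mir142, which lies on the same chromosome and had more reads than Mir21a. With both strands counted, Mir21a supplied 19.5% of the reads of the chromosome's miRNA genes in replicate 1 and 18.8% in replicate 2.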

How the data were processed

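MicroRNA-seq libraries of 2 newborn thymuses were used, 1 per pup. The deposited tables, 1 per library, hold raw read counts per miRNA gene in 3 unnamed columns. From the values, the first is the sum of the other 2, which are the strands of the gene. Per the text files deposited with the tables, the authors used mm10 and the GENCODE M4 annotation. Which aligner and counter made them is not given in the sources used here. Totals that name no gene (unmapped, multimapping, outside genes) took 69.9% of the reads of replicate 1 and 69.2% of replicate 2, and multimapping reads among them were 56.3% and 57.5% of all reads. They stayed out of library sizes.

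CPM was computed from the column on the gene strand. Names, positions and hosts came from GENCODE M21, and mature sequences from RefSeq (GRCm38.p6), matched by symbol for 254 of 294 detected genes. Shares have 95% Wilson intervals and ratios exact binomial ones (scipy 1.17.1, Python 3.11.15). Hairpins were folded with RNAfold 2.7.2. With 1 group, no test between groups was run. Alternative scaling used edgeR 4.0.16 and DESeq2 1.42.0 (R 4.3.3). The ratio calculation was checked on simulated counts with known folds. Named genes are the seed relatives, the 5 genes above and 5 below Mir21a, the 3 nearest and 4 most extreme in ratio within 2-fold of its level, the nearest miRNA gene, the 5 most abundant with CAGAC, the activation list and the markers. Mir324, Mir7219 and Mir22 were named after their values were seen. The gene, the lists and this rule were chosen with earlier results of these data known.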

Additional observations from a re-analysis of the deposited data

Results flagged for a closer look

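Reads opposite to Mir142b, in the column that the levels did not use, came to 387318 in replicate 1 and 178605 in replicate 2, where Mir142 is annotated. They exceeded the counts of Mir21a 3.43 and 3.52 times, whereas Mir21a had 0 opposite reads.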

How the results depend on the processing

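The rank of Mir21a stayed at 6 in either library alone and without genes that share 20 bases with another locus. None of the genes ranked above it shares such a stretch, so leaving sharing genes out could not move the rank. Whether reads lost to several loci would put other genes above Mir21a was not tested. The rank was 7 with unstranded counts and with the larger strand at each locus, since Mir142 then entered the order. Its level kept within the SD under TMM and DESeq2 scaling, and was 34461 CPM with unstranded counts, 43237 CPM without Mirlet7g in the total, 48560 CPM without genes that share 20 bases and 10482 per 1000000 of all reads. The TMM and DESeq2 factors were set to balance over both libraries, so they could hardly move a mean. In single libraries the level of Mir21a ran from 39315 to 41277 CPM. Its log2 ratio was below 0 under the 9 alternatives run: -0.14 with TMM, -0.15 with TMM and no filter, -0.10 with TMM and a filter of 100 counts, -0.11 with DESeq2 size factors, -0.034 over all reads, -0.090 without Mirlet7g, and from -0.076 to -0.065 in the others. A change of scaling moves every gene by the same amount. The share of genes of similar level closer together than Mir21a ran from 11.1% to 30.0% under 9 alternatives, against 27.3%. The seed share was 100% and the opposite-strand share 0 under each alternative run. Leaving out a library could move neither, since Mir21c and the strand opposite to Mir21a had 0 counts in both libraries. The summed activation list was 4561 CPM with unstranded counts and ran from 4859 to 5808 CPM in single libraries. No paired analysis was possible because both libraries belong to 1 group. Depth sets the limit at low counts: 3 counts equal 1.10 CPM in replicate 1 and 2.33 CPM in replicate 2.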
